A study of Mus musculus with 16 samples.

Results

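Mechanical loading of the tibia in NT3 mice was followed in cortical bone from 8 libraries of a series of 16: the loaded right and the non-loaded left tibia of 4 mice. The members were taken from the labels, as the libraries of NT3-Cre+ genotype, and paired by the animal number in their titles. The mice were males aged 16 weeks. The right limb was compressed along its axis with a peak force of 10.0 N on 9 days, with 1200 cycles per day at 4 Hz, to reach -2000 microstrain. Bone was collected 4 hours after the last bout, cleaned of muscle and spun to clear the marrow, and the mean RNA integrity number over the series was 5.4. The other 8 libraries come from 4 mice labelled Ctrl, treated alike except for a peak force of 8.7 N for the same strain. Which allele NT3 stands for, which promoter drives its Cre and what genotype Ctrl mice have is not given in the sources used here. By the title of the series, the kinase NIK (NF-kB inducing kinase) was made active in bone-forming cells under a conditional design. The loaded limb was always the right limb, so loading and body side cannot be told apart.

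NIK, encoded by Map3k14, is the kinase of the non-canonical NF-kB pathway. It leads to the cutting of the p100 precursor made from Nfkb2 into p52, which pairs with RelB in the nucleus. Bone under repeated load recruits osteoblasts that lay down type I collagen and mineralize it. Mineral starts in vesicles shed from these cells, where the phosphatase PHOSPHO1 and the sphingomyelinase SMPD3 (neutral sphingomyelinase 2) help to release phosphate. Osteocytes, the cells buried in bone, hold the brake sclerostin (Sost) and make matrix proteins such as Dmp1 and Mepe.

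Each value in the files is the number of fragments counted in a row named for a gene. Many rows with changed counts overlapped a gene transcribed from the other strand, and are given here by their own name followed by the gene opposite. A row was said to lie opposite a gene where their exons, from GENCODE M21 on GRCm38, shared at least 20 bases. How counting treated strand is not given in the sources used here. The files do not separate a row's own fragments from those of the gene opposite, so a value below belongs to the row, and either gene or both may have moved. Rows with no gene opposite, and genes given by their own row, share this limit: without the strand setting, their fragments cannot be assigned to the gene's own transcript. Levels are TMM-scaled counts per 1e+06 fragments (CPM), listed in the order of mice 1 to 4.

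Of 7192 rows tested, 30 (0.417%) changed with loading in NT3 tibiae at an adjusted p under 0.05 in edgeR. These were 24 higher (0.334%) and 6 lower (0.0834%), and each moved in the same direction in 4 of 4 mice. At an unadjusted p under 0.05 there were 303 rows higher and 243 lower. The loaded and non-loaded levels did not overlap in 16 of the 30 rows. The 30 were chosen by the paired test on these same values, so shared direction and separation are no separate evidence for the calls. Neither was counted over all tested rows. A gene lay opposite 23 of the 30 (18 higher, 5 lower), against 3887 of all tested rows (54.05%). These shares are not matched for level: a gene lay opposite 88.0% of matched rows averaging at least 100 fragments, against 15.28% of other matched rows. In 14 rows, all of them higher, the call held when any NT3 mouse was left out, and under each alternative that tested the row, other than dropping the block for mouse. Without that block, 5 of the 14 were called: Ddn, Prkag1, Col11a2, H2-Pb and Nt5c3b. The other 16 (10 higher, 6 lower) were not called without at least 1 of the NT3 mice, and 8 of the 30 rows averaged under 50 fragments.

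**Figure D1:**
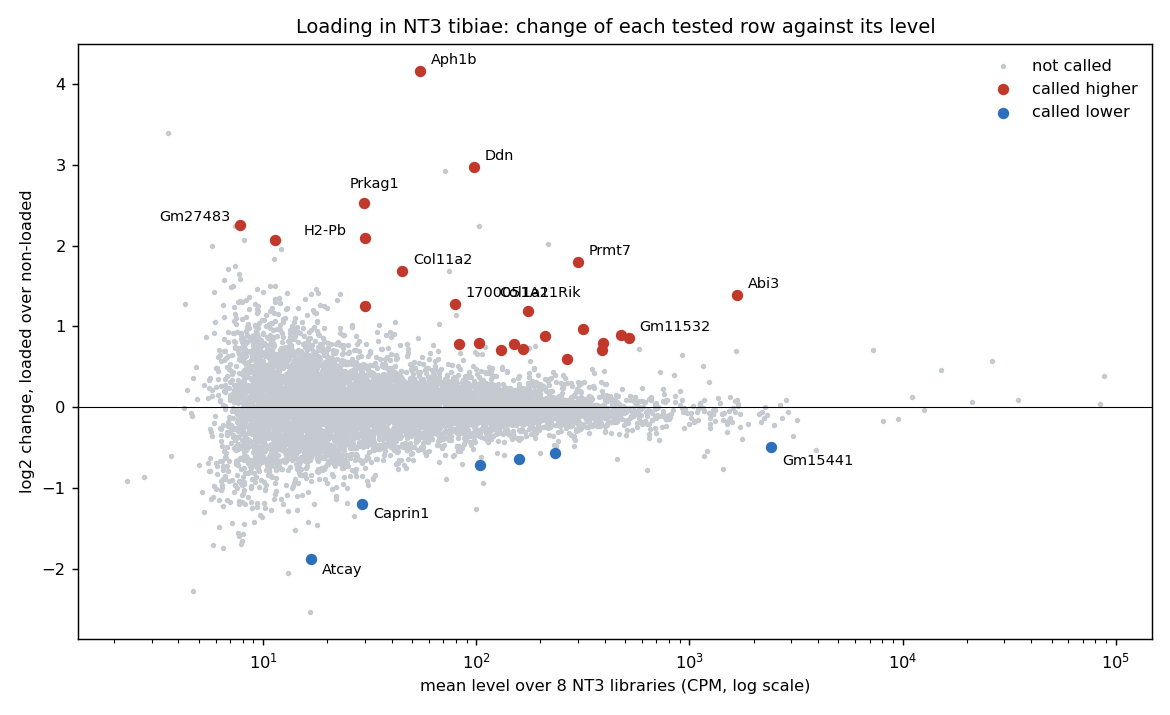
The log2 change of each of the 7192 tested rows (vertical axis) is plotted against its mean level over the 8 NT3 libraries (horizontal axis, CPM, log scale), with the 24 rows called higher in red and the 6 called lower in blue. The Abi3 and Prmt7 rows stand out at high levels, while the Aph1b row has the largest change among the called rows, 4.16.

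Rows over 3 genes of mineral formation rose. The Abi3 row (chr11:95830074-95842476, minus strand) lies with its exons opposite Phospho1, whose exons it shares for 1708 bases, and opposite Zfp652 and Gngt2, for 2913 and 234 bases. Abi3 encodes a regulator of actin, and PHOSPHO1 frees phosphate from phosphocholine inside matrix vesicles. The row held 1052, 1368, 623 and 689 CPM in the non-loaded tibiae and 2830.3, 3311, 1701 and 1825 CPM in the loaded ones. All 4 loaded tibiae were above all 4 non-loaded tibiae. The change was 2.62-fold, with a log2 change of 1.39 (SE 0.11, adjusted p = 1.87e-12). The row of Phospho1 itself held 88.4, 70.9, 113 and 70.1 CPM non-loaded and 72.9, 79.7, 129.7 and 112 CPM loaded, and the groups overlapped. Its log2 change was 0.19 (SE 0.19, adjusted p = 0.903).

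The Prmt7 row (chr8:106210936-106252794, plus strand) meets the end of Smpd3, with 247 shared exonic bases, and shares 21 with the noncoding Gm26786. Prmt7 encodes an arginine methyltransferase, and Smpd3 is needed for normal mineralization of bone and cartilage. The row held 161, 224, 51.1 and 111 CPM in non-loaded and 687, 599.5, 243 and 321 CPM in loaded tibiae. The lowest loaded level, in mouse 3, stood above the highest non-loaded level, in mouse 2. The row rose 3.46-fold, a log2 change of 1.79 (SE 0.14, adjusted p = 1.27e-12). The row of Smpd3 itself, at 24.2, 29.5, 34.9 and 37.1 CPM non-loaded and 32.3, 29.7, 22.9 and 56.9 CPM loaded, had a log2 change of 0.14 (SE 0.29, adjusted p = 0.972).

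The 1700051A21Rik row (chr11:72266421-72268575, plus strand) covers 473 exonic bases of Slc13a5, which encodes a plasma membrane transporter that takes up citrate, a component of bone mineral. It held 43.1, 94.9, 13.7 and 41.3 CPM non-loaded and 154, 149.9, 54.7 and 84 CPM loaded. Every mouse was higher on the loaded side, although mouse 2 had a non-loaded level above the loaded levels of mice 3 and 4. The log2 change was 1.27 (SE 0.21, adjusted p = 0.000229). The row of Slc13a5 itself held 0 to 2 fragments per NT3 library. The list of mineralization and phosphate genes was chosen with earlier results of these data known, so its counts are no separate evidence. In that list, 3 of 6 rows opposite a member were called higher, against 0.334% of all tested rows. Their median log2 change was 0.99, beside -0.0037 over all tested rows, which were not limited to rows opposite a gene. None of the 8 rows named for a member was called, and their median was -0.08.

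**Figure D2:**
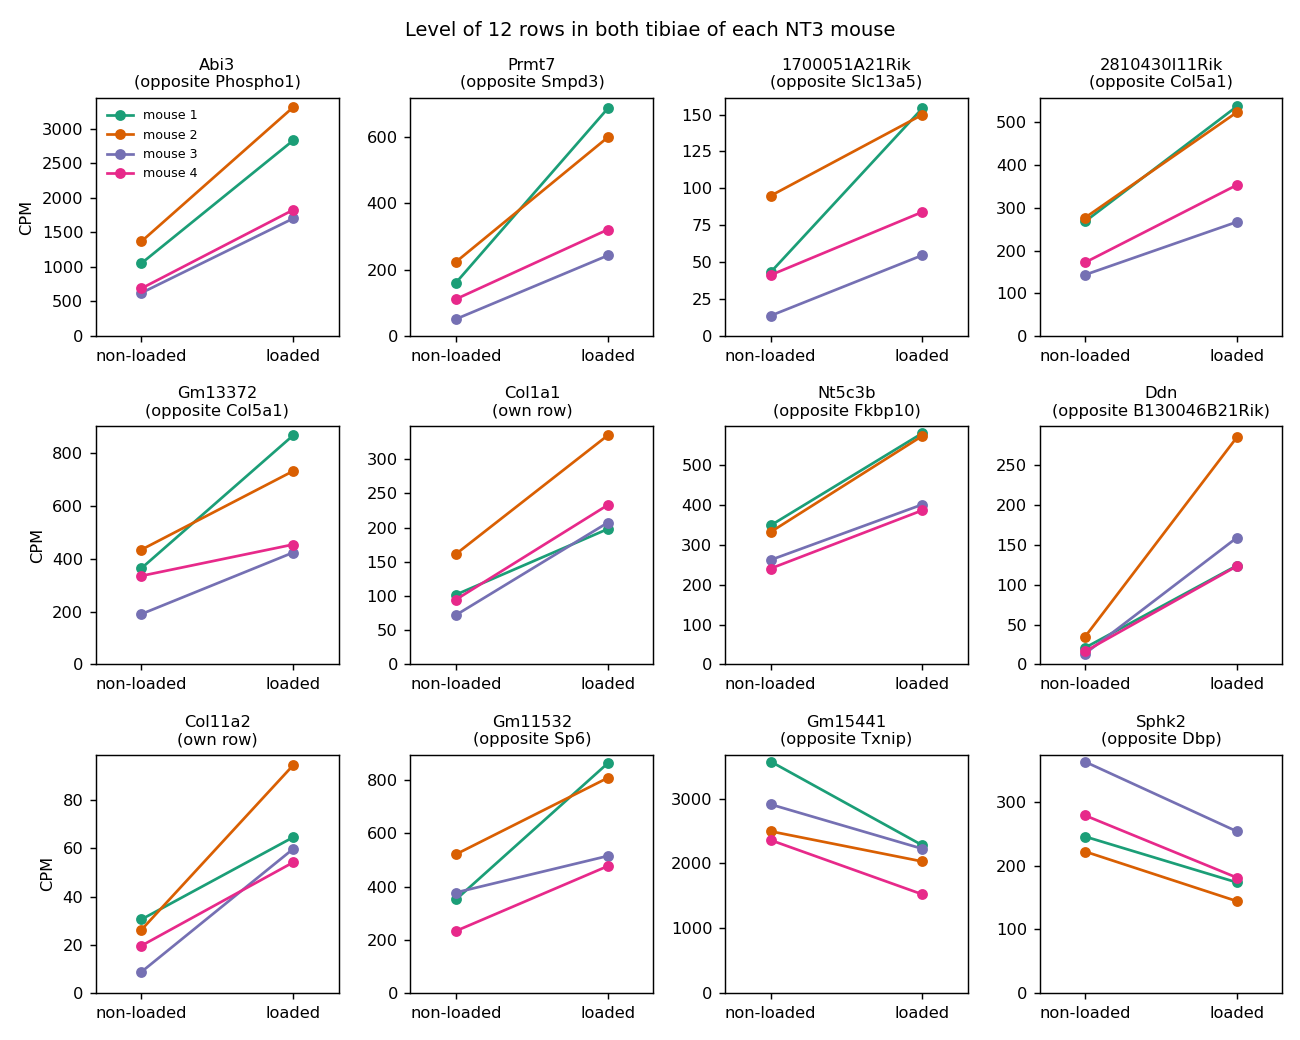
Levels in CPM (vertical axes, from 0) of 12 rows in the non-loaded and loaded tibia of each NT3 mouse, with a line joining the limbs of a mouse. The lines rise in all 4 mice in 10 of the 12 panels, and fall in all 4 mice in the Gm15441 and Sphk2 rows.

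The rows named for Col1a1 and Col11a2, both rows opposite Col5a1 and a row opposite Fkbp10 rose as well. The Col1a1 row (chr11:94936224-94953042, plus strand), for the main chain of type I collagen, has no gene opposite. It held 102, 162, 72.3 and 94.9 CPM non-loaded and 198, 335, 207 and 233 CPM loaded, with no overlap between the groups. The rise was 2.28-fold, a log2 change of 1.19 (SE 0.17, adjusted p = 1.48e-05). The Col1a2 row, for the partner chain, was higher in 4 of 4 mice, with 88.4, 112, 68.6 and 60.8 CPM non-loaded and 149, 171, 80.1 and 121 CPM loaded, but was not called. Its log2 change was 0.65 (SE 0.18, adjusted p = 0.106). It was called when Ctrl mouse 4 was left out, with an adjusted p of 0.0456, and in a fit of the NT3 libraries alone, with 0.048.

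Col5a1 encodes a chain of type V collagen, which sets the diameter of type I fibrils. The rows opposite it lie at separate ends of the gene, 2810430I11Rik over 99 bases at chr2:27882925-27887052, minus strand and Gm13372 over 113 bases at chr2:28025417-28030437, minus strand. The 2810430I11Rik row held 268, 277, 143 and 172 CPM non-loaded and 538, 524, 267 and 354 CPM loaded, a log2 change of 0.97 (SE 0.13, adjusted p = 2.22e-06). The Gm13372 row held 364, 434, 191 and 335 CPM non-loaded and 867, 732, 424 and 454 CPM loaded, a log2 change of 0.90 (SE 0.13, adjusted p = 4.55e-05). In each row every mouse rose, and the groups overlapped through the loaded level of mouse 3. The row of Col5a1 itself held 22 to 48 fragments per NT3 library, with 128 over the non-loaded and 141 over the loaded tibiae.

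The Nt5c3b row (chr11:100422321-100441808, minus strand) shares 193 exonic bases with Fkbp10, which encodes a chaperone of the endoplasmic reticulum needed for collagen cross-linking. It held 348, 332, 262 and 240.3 CPM non-loaded and 579, 573, 401 and 386 CPM loaded. The groups did not overlap, and the log2 change was 0.71 (SE 0.12, adjusted p = 0.000229). Fkbp10 itself had 0 to 7 fragments per NT3 library.

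Col11a2, a chain of type XI collagen best known from cartilage, rose in its own row (chr17:34039437-34066685, plus strand). The row held 30.5, 26.2, 8.73 and 19.6 CPM non-loaded and 64.6, 94.5, 59.8 and 54.2 CPM loaded, without overlap, and its log2 change was 1.68 (SE 0.26, adjusted p = 5.96e-05). The H2-Pb row, a pseudogene on the other strand, lies 7077 bases past the 3' end of Col11a2. It held 15.8, 19.6, 3.74 and 7.22 CPM non-loaded and 61.5, 68.9, 25.4 and 37.9 CPM loaded, again without overlap, with a log2 change of 2.09 (SE 0.33, adjusted p = 6.73e-05). The lists of collagen and collagen processing genes were chosen with earlier results of these data known, so their counts are no separate evidence. Over all tested rows, 0.334% were called higher. Among rows named for collagen genes, 2 of 23 were called higher, none lower, and 16 were above 0, with a median of 0.37. Among rows opposite a collagen gene, 2 of 4 were called higher, both over Col5a1, with a median of 0.57. For genes of collagen processing, 1 of 8 rows opposite a member was called, the Nt5c3b row, and none of 13 rows by name, with medians of 0.11 and 0.0076.

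**Figure D3:**
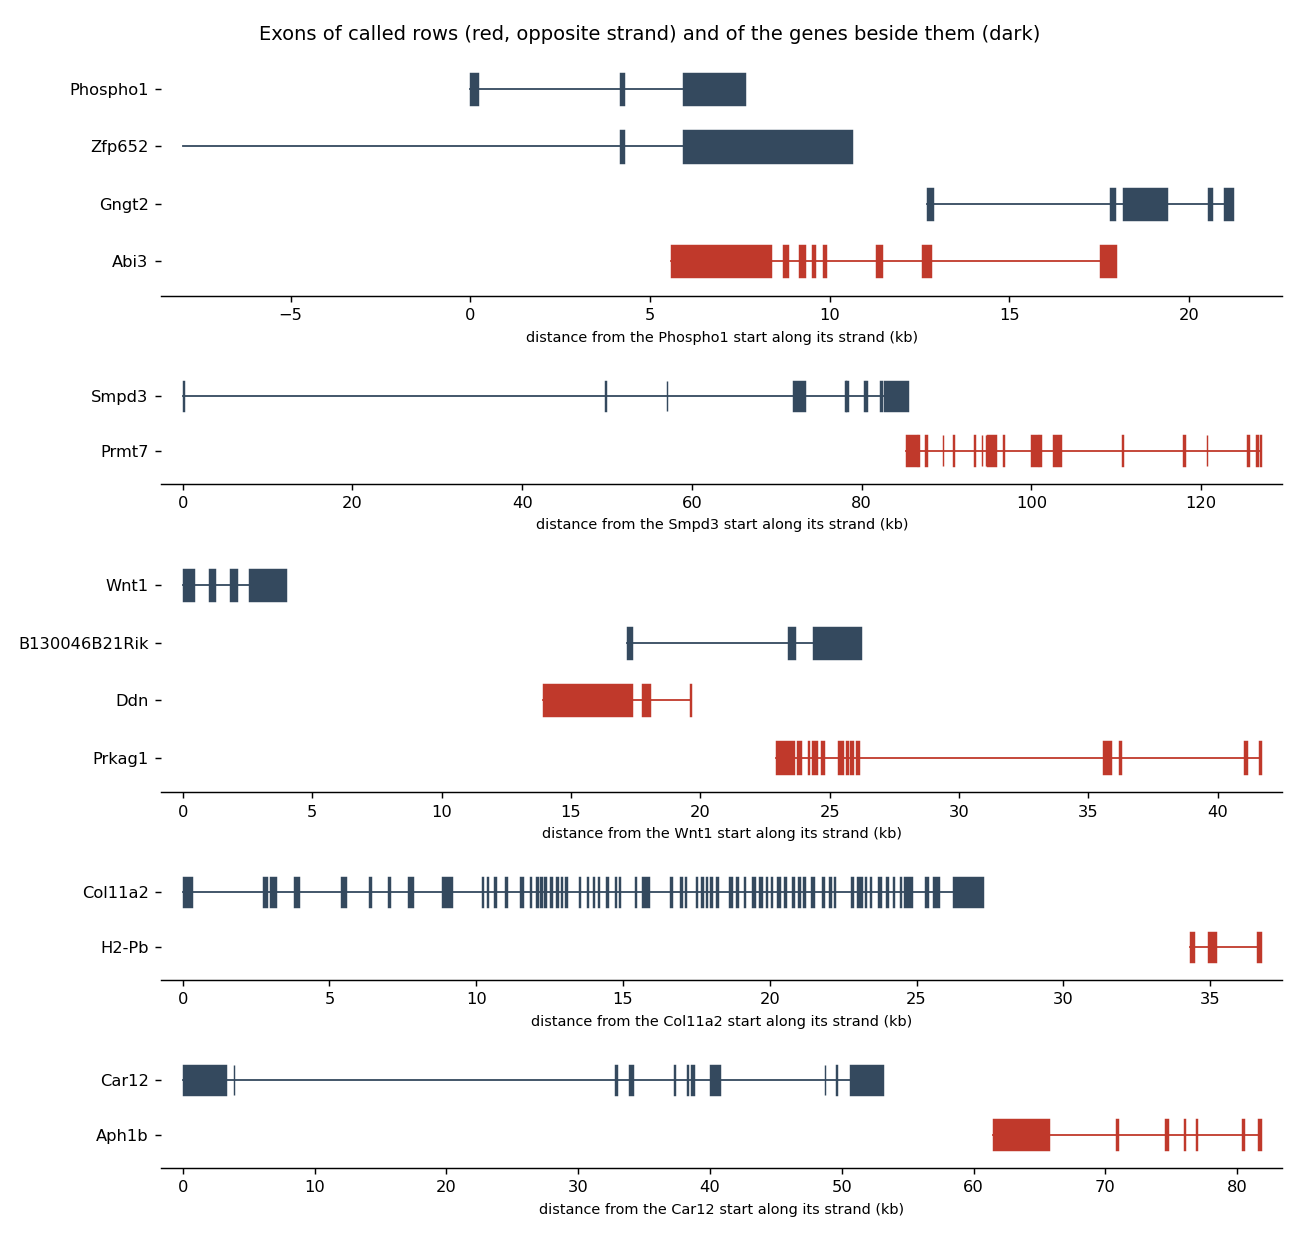
Exons (boxes) are drawn to scale, in kb from the start of a reference gene along its strand, with called rows on the opposite strand in red and the reference gene and its neighbours in dark blue. The Abi3 and Prmt7 rows overlap the 3' ends of Phospho1 and Smpd3, while the Ddn, H2-Pb and Aph1b rows lie 9940, 7077 and 8357 bases past the 3' ends of Wnt1, Col11a2 and Car12. The 5' part of Zfp652 is not drawn.

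A pair of rows downstream of Wnt1 rose, and the Ddn row had the smallest p of all rows tested. Wnt1 encodes a secreted ligand whose loss causes fragile bone. The Ddn row (chr15:98803777-98809490, minus strand) shares 177 exonic bases with the antisense gene B130046B21Rik and lies 9940 bases past the 3' end of Wnt1, on the other strand. It held 21.04, 34.9, 13.7 and 16.5 CPM non-loaded and 124, 285, 159 and 123 CPM loaded. The lowest loaded level was more than 3 times the highest non-loaded level, with mouse 2 the highest in each limb. The row rose 7.86-fold, a log2 change of 2.98 (SE 0.20, adjusted p = 8.19e-15). The Prkag1 row (chr15:98812797-98831521, minus strand), which shares 950 bases with B130046B21Rik and lies 18960 bases past Wnt1, held 9.47, 14.2, 6.23 and 4.12 CPM non-loaded and 36.5, 101, 38.2 and 28.5 CPM loaded. The groups did not overlap, and the log2 change was 2.53 (SE 0.30, adjusted p = 1.89e-07). The row of Wnt1 itself held 0 to 3 fragments per NT3 library, too few to test.

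The Aph1b row (chr9:66775202-66795490, minus strand), for a part of the gamma-secretase complex, had the largest change among the called rows. It lies 8357 bases past the 3' end of Car12, on the other strand, and Car12 encodes a membrane carbonic anhydrase. The row held 4.21, 9.82, 1.25 and 6.19 CPM non-loaded and 219.9, 78.3, 38.2 and 77.2 CPM loaded, with no overlap. The log2 change was 4.16 (SE 0.44, adjusted p = 6.73e-05), and it was 3.47 without mouse 1, whose loaded level was the highest, and 4.73 without mouse 2. The row of Car12 itself held 0 to 3 fragments per NT3 library.

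A row over the gene of a transcription factor rose in 4 of 4 mice. The Gm11532 row (chr11:97020508-97026248, minus strand) covers 3329 exonic bases of Sp6, a factor best known from teeth and skin. It held 351, 522, 378 and 233 CPM non-loaded and 864, 809, 515 and 477 CPM loaded, with overlap through mouse 2, and a log2 change of 0.85 (SE 0.13, adjusted p = 9.05e-05). Sp6 itself had 3 to 7 fragments per NT3 library.

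The windows just before the starts of 3 genes opposite rising rows and of 2 opposite falling rows are shown so that their letters can be compared. Of 24 genes opposite a called row, 15 had an entry among the RefSeq promoter windows (GRCm38.p6). Each line gives the 250 bases before the listed start, 5' to 3' on the gene's strand. Capitals mark matches on either strand to TGANTCA (the AP-1 motif), CACGTG (an E-box) or GGGCGG (a GC box). TGTGGT, a core of the RUNX motif, was also searched on either strand and matched none of the 5 shown. The 5 do not stand for the 15. Among windows not shown, that of Rpl18, also opposite Sphk2, held 2 matches to TGTGGT, and that of the second Aimp1 start held 1. The window of Zfp652, opposite Abi3, held 1 match to TGANTCA, and that of B130046B21Rik, opposite Ddn and Prkag1, held 1 to CACGTG.
Phospho1, chr11:95824250-95824499, plus strand: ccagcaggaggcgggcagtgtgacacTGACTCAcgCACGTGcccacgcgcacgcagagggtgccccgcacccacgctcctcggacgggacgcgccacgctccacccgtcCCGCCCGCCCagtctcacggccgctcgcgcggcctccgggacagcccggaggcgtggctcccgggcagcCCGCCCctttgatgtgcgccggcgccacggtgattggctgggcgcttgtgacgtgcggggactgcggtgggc
Col5a1, chr2:27886175-27886424, plus strand: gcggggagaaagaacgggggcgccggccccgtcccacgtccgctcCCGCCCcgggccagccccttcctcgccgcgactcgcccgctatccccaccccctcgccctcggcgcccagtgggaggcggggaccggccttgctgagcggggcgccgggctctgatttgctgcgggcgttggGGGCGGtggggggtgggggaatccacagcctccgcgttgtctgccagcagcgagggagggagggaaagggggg
Slc13a5, chr11:72267162-72267411, minus strand: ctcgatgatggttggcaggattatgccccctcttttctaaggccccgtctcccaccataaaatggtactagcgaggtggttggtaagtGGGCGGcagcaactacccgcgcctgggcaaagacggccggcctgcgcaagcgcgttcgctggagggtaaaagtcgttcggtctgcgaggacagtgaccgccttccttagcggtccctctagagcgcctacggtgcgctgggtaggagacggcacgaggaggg
Txnip, chr3:96557707-96557956, plus strand: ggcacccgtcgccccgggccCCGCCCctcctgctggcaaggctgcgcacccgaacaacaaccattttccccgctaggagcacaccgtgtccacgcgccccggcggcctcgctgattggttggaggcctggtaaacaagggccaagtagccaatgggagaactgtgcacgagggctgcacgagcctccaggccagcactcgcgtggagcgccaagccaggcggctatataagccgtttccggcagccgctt
Dbp, chr7:45704997-45705246, plus strand: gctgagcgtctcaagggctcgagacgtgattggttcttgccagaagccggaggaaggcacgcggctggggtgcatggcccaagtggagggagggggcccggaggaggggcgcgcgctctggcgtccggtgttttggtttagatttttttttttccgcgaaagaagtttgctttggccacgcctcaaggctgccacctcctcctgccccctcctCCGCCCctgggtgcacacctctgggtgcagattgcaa
The Phospho1 window held 1 match to TGANTCA, 1 to CACGTG and 3 to GGGCGG, of which 2 overlap. The Col5a1 window held 2 matches to GGGCGG, and those of Slc13a5, Txnip and Dbp held 1 each. Slc13a5 has a second listed start, whose window, not shown, held 3 matches to GGGCGG. Over 27025 RefSeq windows of this length, 1 for each symbol, TGANTCA was found in 6.87%, CACGTG in 6.05%, GGGCGG in 32.94% and TGTGGT in 14.18%. A match describes letters and not binding.

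The other 10 rows called higher were those that lost the call without at least 1 NT3 mouse. Rows opposite Chn1, which encodes a regulator of the small GTPase Rac, were Chn1os1 (173, 181, 109.7 and 118 CPM non-loaded, 417, 282, 181 and 211 CPM loaded, log2 change 0.88 (SE 0.17, adjusted p = 0.00553)) and Chn1os3, at 0.73 (adjusted p = 0.0219). The first was not called without mouse 1 or 4 (adjusted p up to 0.13) and the other not without mouse 1, 2 or 3 (up to 0.261). Gm15475 lies opposite Dysf, for a protein that reseals torn cell membranes, and rose by 0.78 (adjusted p = 0.0219, up to 0.263 without mouse 1, 2 or 4). Gm15737 lies opposite Adamts9, for a protease of the matrix, and rose by 0.60 (adjusted p = 0.0219, up to 0.47 without mouse 1, 2 or 4). Mterf2, opposite Tmem263, rose by 0.80 (adjusted p = 0.0254, up to 0.467 without mouse 1 or 2).

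The Gm27483 row covers 71 bases of H19, an imprinted noncoding RNA. It held 1.05, 2.18, 1.25 and 6.19 CPM non-loaded and 15.6, 8.10, 5.09 and 23.03 CPM loaded, close to the floor of the counts, with a log2 change of 2.26 (SE 0.53, adjusted p = 0.0324). The Tbck row, opposite Aimp1, for a scaffold of the tRNA synthetase complex, held 2.10, 7.64, 2.49 and 5.16 CPM non-loaded and 26.1, 14.9, 13.99 and 18.97 CPM loaded, with a log2 change of 2.07 (SE 0.50, adjusted p = 0.0454). Tbck was not called without mouse 1, 3 or 4 (adjusted p up to 0.481), nor when Ctrl mouse 2 or 3 was left out (0.052 and 0.054). Gm43948, which lies within Pdzrn3 with no shared exon, rose by 1.25 (adjusted p = 0.0258). Tanc2, for a scaffold protein of synapses, rose by 0.70 (adjusted p = 0.047), and Gm15645, opposite the cadherin gene Dchs1, by 0.79 (adjusted p = 0.0496). Gm27483, Gm43948, Tanc2 and Gm15645 each lost the call when any NT3 mouse was left out, with adjusted p up to 0.415, 0.309, 0.353 and 0.569.

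The 6 rows that fell, 0.0834% of those tested, included 2 of 7 rows opposite genes of the clock and glucocorticoid list. That list was chosen with earlier results of these data known. Gm15441 (chr3:96555765-96566801, minus strand) shares 606 exonic bases with Txnip, whose product binds thioredoxin and limits glucose uptake. It held 3575, 2497, 2913 and 2361 CPM non-loaded and 2281, 2031, 2227 and 1523 CPM loaded, and the highest loaded level, in mouse 1, was below the lowest non-loaded level, in mouse 4. The fall was 1.41-fold, a log2 change of -0.49 (SE 0.11, adjusted p = 0.0254). The row of Txnip itself held 0 to 6 fragments per NT3 library. Sphk2 (chr7:45709467-45718002, minus strand) lies opposite Dbp, an output factor of the circadian clock, for 539 bases and opposite the ribosomal protein gene Rpl18 for 373. It held 246, 223, 364 and 279 CPM non-loaded and 174, 144, 254 and 182 CPM loaded, a log2 change of -0.56 (SE 0.13, adjusted p = 0.0282). The groups overlapped through mouse 3, which was the highest in each limb. The row of Dbp itself had a log2 change of 0.09 (SE 0.29, adjusted p = 0.988). The median over the 7 rows was -0.23. None of the 9 rows named for a member of the list was called, and their median was -0.13.

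The other falling rows belong to no single list. Atcay, opposite its antisense gene Atcayos, held 15.8, 45.8, 17.5 and 27.8 CPM non-loaded and 9.38, 4.05, 3.82 and 9.48 CPM loaded, without overlap, and a log2 change of -1.88 (SE 0.43, adjusted p = 0.0258). Caprin1, for an RNA-binding protein of stress granules, held 41.03, 41.5, 43.6 and 35.1 CPM non-loaded and 13.5, 14.9, 25.4 and 17.6 CPM loaded, without overlap, and a log2 change of -1.19 (SE 0.29, adjusted p = 0.047). Gm42538, opposite Igsf3, fell in 4 of 4 mice without overlap, with a log2 change of -0.64 (SE 0.15, adjusted p = 0.0346). Gm17140, opposite the thyroglobulin gene Tg, had a log2 change of -0.71 (SE 0.17, adjusted p = 0.0324). Each of the 6 falls was lost without some NT3 mice: Gm15441 without 1, 3 or 4, Sphk2 and Caprin1 without any of the 4, Atcay without 2, 3 or 4, and Gm17140 and Gm42538 without 1, 2 or 3. Adjusted p then reached 0.135 for Sphk2 and 0.415 for Gm17140, with no change of direction.

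No row of skeletal muscle genes was called. Of 17 rows named for such genes, 13 were below 0 with loading and 4 above, with a median of -0.32. All 14 tested rows opposite skeletal muscle genes were below 0, with a median of -0.72. They included Rabep2 opposite Atp2a1, the calcium pump of fast fibres, at -0.77, A930016O22Rik opposite the creatine kinase gene Ckm at -0.54 and Ube2c opposite the troponin gene Tnnc2 at -0.61. Summed over 21 rows opposite list genes, of which 1 was at 0 in every NT3 library, they held 3663, 5746, 3075 and 16716 CPM in non-loaded and 5334, 5179.8, 1413 and 4596 CPM in loaded tibiae. Mouse 4 had the highest sum, on the non-loaded side, and mouse 1 alone was higher on the loaded side (exact sign-flip permutation test, two-sided, p = 0.375). With the mean level of muscle rows as a covariate, none of the 6 falling rows was called and 19 rows were called higher, 17 of them among the 24. The 6 stayed below 0 in that fit, with log2 changes of -1.35 for Caprin1 (-1.19 without the covariate), -0.71 for Gm17140 (-0.71), -0.62 for Gm42538 (-0.64), -0.44 for Gm15441 (-0.49), -0.46 for Sphk2 (-0.56) and -1.35 for Atcay (-1.88).

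No row of granulocyte or erythroid genes was called. Of 7 rows named for granulocyte genes, 4 were above 0, with a median of 0.03, and the sum over the list by name was higher in 2 mice and lower in 2. The 5 rows opposite granulocyte genes were lower in sum in 4 of 4 mice, with 7158, 6239.7, 7468 and 7494 CPM non-loaded and 4725, 5873, 6491 and 4906 CPM loaded. The exact sign-flip p, 1 in 8, is the smallest that 4 pairs allow. The Gm11505 row, opposite the myeloperoxidase gene Mpo, had the most fragments of the 5, a mean of 3381 per library over the series, with a log2 change of -0.53 (SE 0.18, adjusted p = 0.457). It was called in the fit of NT3 libraries alone, with an adjusted p of 0.00119, and without Ctrl mouse 4, with 0.00117. All 9 tested rows opposite erythroid genes were below 0, with a median of -0.13, while 5 of 8 rows named for them were above 0, with a median of 0.03. The erythroid sums, by name and by opposite gene, were each higher in 2 mice and lower in 2 (exact sign-flip permutation test, two-sided, p = 0.875 for each). With a covariate for marrow markers 16 rows were called higher and 4 lower, 14 and 2 of them among the 30. The 14 rows not called in that fit kept their direction, with log2 changes such as 0.78 for Gm15475 (0.78 without the covariate), -0.59 for Sphk2 (-0.56) and 2.47 for Gm27483 (2.26), and 0.53 for Gm15645 (0.79). In bulk bone, fewer cells of a type and less RNA per cell cannot be told apart.

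Osteocyte and NF-kB rows gave no call. Of 10 rows named for osteocyte genes, 8 were below 0, with a median of -0.33. Of 3 rows opposite osteocyte genes, 2 were above 0, with a median of 0.25. Sost held 21.04, 29.5, 27.4 and 9.28 CPM non-loaded and 4.17, 12.2, 11.4 and 18.97 CPM loaded, lower in 3 of 4 mice and higher in mouse 4, with a log2 change of -0.91 (SE 0.41, adjusted p = 0.626). Mepe was at -0.70 (SE 0.19, adjusted p = 0.107), and without NT3 mouse 2 it was called, at -1.0 with an adjusted p of 0.0149. Dmp1 ran the other way, higher in 4 of 4 mice, at 47.3, 107, 73.5 and 51.6 CPM non-loaded and 87.5, 146, 113 and 69.1 CPM loaded, with a log2 change of 0.59 (SE 0.18, adjusted p = 0.168). Sparc, for the matrix protein osteonectin, was at 0.64 (SE 0.24, adjusted p = 0.405).

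Map3k14 itself had 1 to 9 fragments per NT3 library, 18 in all non-loaded and 20 in all loaded tibiae, and was not tested. The Psd row, opposite Nfkb2, held 168, 174, 187 and 154 CPM non-loaded and 195, 192, 218 and 245 CPM loaded, higher in 4 of 4 mice, with a log2 change of 0.31 (SE 0.15, adjusted p = 0.639). The row of Nfkb2 itself had a log2 change of -0.07 (SE 0.40, adjusted p = 0.99). None of 10 rows named for members of the NF-kB list and none of 11 opposite a member was called, with medians of 0.05 and 0.12. Above 0 were 5 rows by name and 6 by opposite gene, and below 0 were 5 of each kind. The Gm16175 row, opposite the p50 and p52 partner Bcl3, was at 0.86 (SE 0.29, adjusted p = 0.295), and Oraov1, opposite the cyclin gene Ccnd1, at 0.44 (SE 0.13, adjusted p = 0.142). Gm43109, opposite Vcam1, was at -0.28 (SE 0.13, adjusted p = 0.63). Oraov1 was called without Ctrl mouse 4, with an adjusted p of 0.0333. In the Wnt list, none of 10 rows by name and none of 10 rows by opposite gene was called, with medians of -0.06 and 0.23. Above 0 were 5 rows of each kind, and below 0 were 5 of each kind. The sum by name was higher in 2 mice and lower in 2. The sum by opposite gene was higher in 1 mouse and lower in 3 (exact sign-flip permutation test, two-sided, p = 0.25). By opposite gene, Gm11670, opposite the Wnt target Axin2, was at 1.16 (SE 0.36, adjusted p = 0.206) and Slc15a3, opposite Tmem132a, at 0.57 (SE 0.15, adjusted p = 0.0827). Slc15a3 was called without Ctrl mouse 4, with an adjusted p of 0.0342.

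**Figure D4:**
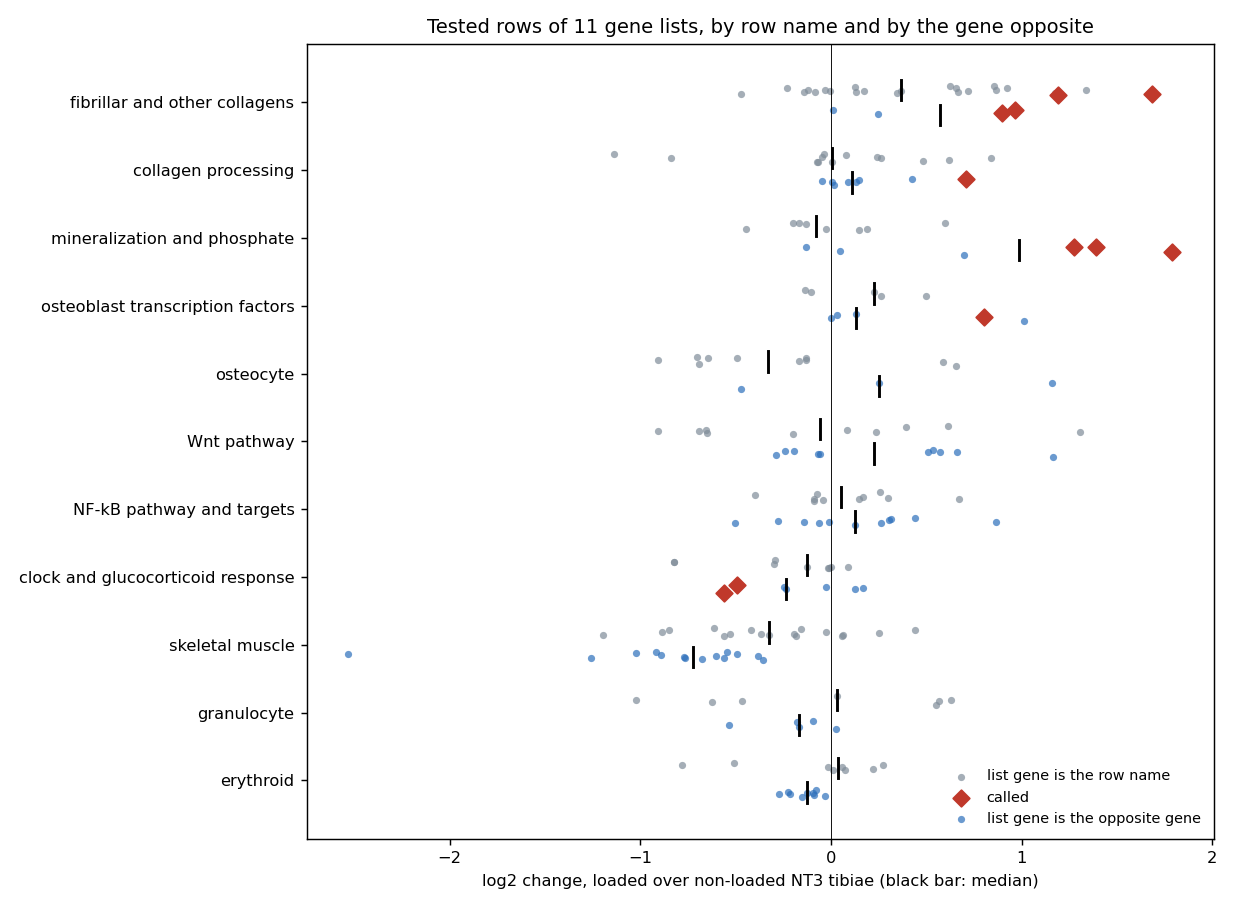
Log2 change with loading in NT3 tibiae (horizontal axis) of each tested row of 11 lists, split by whether the list gene is the row's name (grey) or lies opposite (blue), with called rows as red diamonds and medians as black bars. The 3 diamonds of the mineralization list and both diamonds of the clock list are on rows opposite a member, and all 14 muscle rows of that kind lie below 0.

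Each of the NT3 responses was then set beside that of Ctrl tibiae, where 292 rows (4.06%) were called. Of the 24 rows called higher in NT3, 23 were also called higher in Ctrl, and 21 had the larger log2 change there. Tbck missed the threshold in Ctrl, with an adjusted p of 0.0544. Of the 6 falling rows, Gm15441 alone was called lower in Ctrl, at -0.37 (SE 0.11, adjusted p = 0.047). All 6 had the more negative value in NT3, the comparison in which they were chosen, and none of these differences was called. The difference itself was called in 10 rows (0.139%), each with the lower change in NT3, and 223 rows were higher and 249 lower at an unadjusted p under 0.05. Peak force differed between genotypes, so force and genotype cannot be told apart.

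The smallest p for a difference in response belonged to the Abi3 row, opposite Phospho1. Ctrl levels were 765 ± 208 CPM non-loaded and 4109.7 ± 784 CPM loaded (mean ± SD, n = 4), a log2 change of 2.44 against 1.39 in NT3. The difference, NT3 minus Ctrl, was -1.06 (SE 0.16, adjusted p = 0.000166). For Prmt7, opposite Smpd3, the changes were 2.67 in Ctrl and 1.79 in NT3, a difference of -0.88 (SE 0.20, adjusted p = 0.047). The collagen rows opposite Col5a1 had differences of -1.10 (SE 0.18, adjusted p = 0.000624) for 2810430I11Rik and -1.06 (SE 0.19, adjusted p = 0.00218) for Gm13372. Nt5c3b, opposite Fkbp10, differed by -0.92 (SE 0.17, adjusted p = 0.00218) and Chn1os3, opposite Chn1, by -1.11 (SE 0.23, adjusted p = 0.0181).

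The other 4 rows were not called with loading in NT3. The Gm20444 row, opposite C1qtnf5 and Mfrp, held 176, 91.7, 176 and 86.6 CPM in non-loaded and 232, 122, 145 and 159 CPM in loaded NT3 tibiae, higher in 3 of 4 mice. In Ctrl it held 83.5 ± 26.7 CPM non-loaded and 317 ± 23.5 CPM loaded, and the difference was -1.61 (SE 0.24, adjusted p = 0.000166). The Gm26840 row, opposite the matrix gene Vwa1, held 96.8, 50.2, 66.1 and 46.4 CPM non-loaded and 65.7, 58.1, 41.97 and 40.6 CPM loaded in NT3, higher in 1 of 4 mice. Its Ctrl levels were 37.8 ± 6.75 CPM non-loaded and 94.2 ± 15.7 CPM loaded, and the difference was -1.63 (SE 0.29, adjusted p = 0.00218).

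Ibsp, for bone sialoprotein, held 122, 117, 156 and 99 CPM non-loaded and 125, 149.9, 107 and 77.2 CPM loaded in NT3, with 2 mice higher and 2 lower. In Ctrl it held 101 ± 32.1 CPM non-loaded and 202 ± 65.2 CPM loaded, a log2 change of 0.99 (SE 0.16, adjusted p = 1.58e-05), and the difference was -1.10 (SE 0.22, adjusted p = 0.0117). Col1a2 had a difference of -1.13 (SE 0.25, adjusted p = 0.047), from 1.79 in Ctrl and 0.65 in NT3. The difference for Col1a1, -0.87 (SE 0.24, adjusted p = 0.168), was not called. Next in order, and not called, were the rows opposite Tnc, for the matrix glycoprotein tenascin C, and Plod2, for a lysyl hydroxylase of collagen. The 8030451A03Rik row, opposite Tnc, had a log2 change of -0.24 in NT3 (adjusted p = 0.626), with 4 of 4 mice lower, and of 0.44 in Ctrl (adjusted p = 0.0133), a difference of -0.68 (SE 0.16, adjusted p = 0.057), and was called in 6 alternatives, among them without Ctrl mouse 1 (adjusted p = 0.0218). The Gm38391 row, opposite Plod2, was at 0.43 in NT3 and 1.15 in Ctrl, a difference of -0.72 (SE 0.17, adjusted p = 0.057), and was called in 4 alternatives, among them without NT3 mouse 4 (adjusted p = 0.0244) and without Ctrl mouse 4 (0.0228). In 6 of the 10 rows the difference stayed called when any mouse of either genotype was left out. It was lost in Ibsp without NT3 mouse 3 (adjusted p = 0.169), in Chn1os3 without NT3 mouse 2 or Ctrl mouse 3 (up to 0.308), and in Prmt7 without NT3 mouse 2 or 4 or Ctrl mouse 1, 2 or 3 (up to 0.3). In Col1a2 it was lost without NT3 mouse 1, 2 or 3 or Ctrl mouse 1, 2 or 3 (up to 0.325). None of the 10 was called without the block for mouse. Prmt7 and Col1a2 were also not called with DESeq2 (adjusted p = 0.105 and 0.0808) or limma-voom (0.122 and 0.145), and Chn1os3 was not with limma-voom (0.0756). Prmt7, Col1a2, Chn1os3 and Gm13372 were not called with either the marrow or the muscle covariate (Gm13372: 0.124 and 0.138), Gm20444 was not with the marrow covariate (0.0923) and Ibsp was not with the muscle covariate (0.138).

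**Figure D5:**
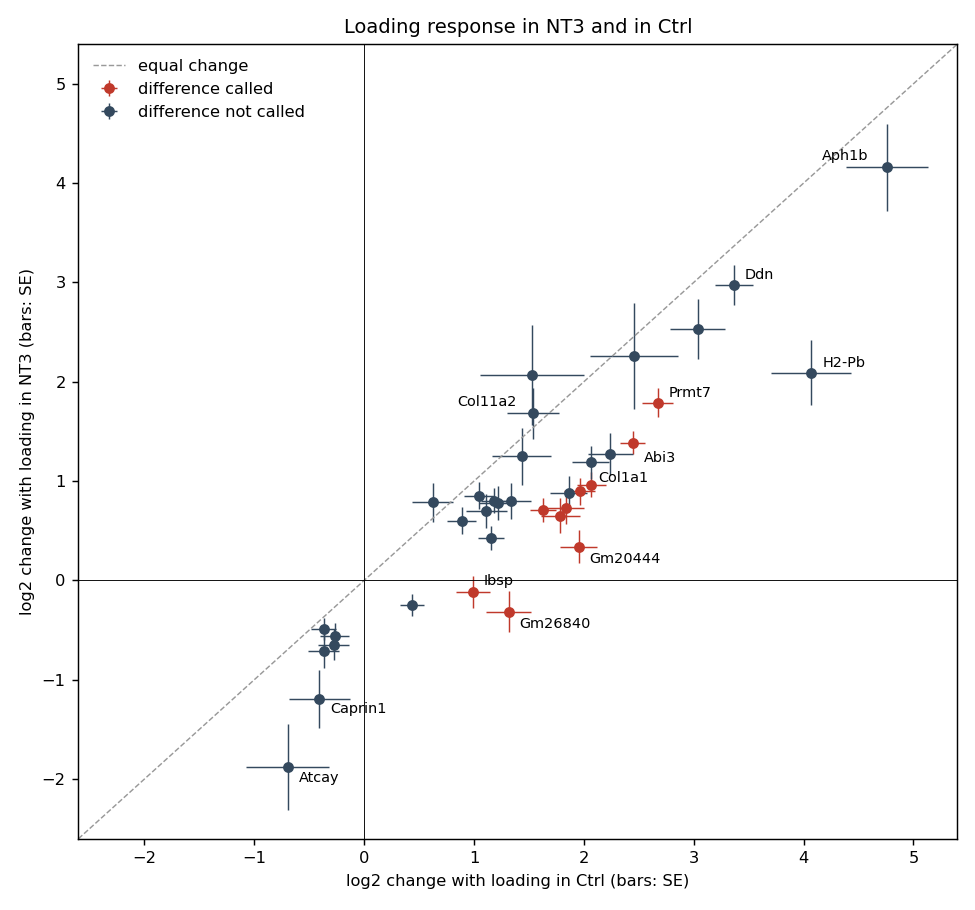
The log2 change with loading in NT3 (vertical axis) is plotted against that in Ctrl (horizontal axis) for the rows called in NT3 or leading the test of the difference, with bars for the SE. The 10 rows with a called difference (red) lie below the dashed line of equal change, and Ibsp and Gm26840 lie right of 0 in Ctrl and just below 0 in NT3.

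Counted fragments per NT3 library numbered 775531 to 961382 on the non-loaded side and 758394 to 911686 on the loaded side. Rows of few fragments, such as Map3k14, cannot be followed, and whether depth or the treatment of strand kept them low was not tested. Ribosomal RNA rows took 6.10% to 14.0% of the non-loaded and 9.14% to 15.9% of the loaded libraries. The satellite-like Gm10800 row took up to 2.33% of the non-loaded libraries and up to 5.72% of the loaded ones. Leaving out ribosomal, mitochondrial and Gm10800 rows gave 29 calls. Among markers of bone, Ibsp, Dmp1, Mepe and Col1a1 were counted in every NT3 library, while Bglap, for osteocalcin, had 0 to 2 fragments in its own row and Alpl, for alkaline phosphatase, 0 to 13. Of 1242 matched rows averaging at least 100 fragments over the series, 88.0% lay opposite a gene, against 15.28% of other matched rows.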

How the data were processed

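RNA was depleted of ribosomal RNA, primed at random and sequenced single-end. The submitters' processing notes name STAR 2.4.2a, the mm10 build, featureCounts 1.4.6 of Subread and DESeq2. The deposited values were whole counts of fragments in 47517 rows, per the file headers, of which 45869 were matched to GENCODE M21 by current or older symbol. Neither the annotation release nor the strand setting is given in the sources used here.

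Counts were filtered with filterByExpr (minimum count 10), given TMM factors and fitted by edgeR's robust quasi-likelihood model (edgeR 4.0.16, limma 3.58.1, R 4.3.3) in 1 model of all 16 libraries, with a block for mouse and a loading term for each genotype. The Benjamini-Hochberg adjustment ran over 7192 rows, and a row was called under 0.05. SE is the log2 change divided by the square root of F. Pairing came from the design text and animal numbers, and deviations of paired NT3 limbs correlated at 0.0908 to 0.163. Alternatives included DESeq2 1.42.0 and limma-voom. The fit was tested on simulated data.

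Rows were named by rule: all called rows, up to 4 smallest p values in each of 26 lists, a set of fixed rows, and the 12 smallest p values for the difference. The fixed rows included those for Phospho1, Smpd3 and Col1a1. The members, the lists and the fixed rows were chosen with earlier results of these data known. List sums were compared with exact sign-flip permutation tests over 4 pairs. A called row and a related row are not reported here.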

Additional observations from a re-analysis of the deposited data

Results flagged for a closer look

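In 4 of 136 groups of 4 NT3 limbs tested, a library stood apart from the others of its group, where chance alone marks about 1 in 20. The Prkag1 row was at 101.3 CPM in the loaded tibia of mouse 2. The summed rows opposite genes of non-collagen matrix were at 4234 CPM in the loaded tibia of mouse 1, and those opposite NF-kB genes at 2683 CPM in the same library. The summed rows opposite T and NK cell genes were at 84.0 CPM in the loaded tibia of mouse 4.

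For 10 rows the loading response differed between genotypes by the test of the difference itself, and each log2 change was lower in NT3. The differences, NT3 minus Ctrl, were -1.06 for Abi3, -1.61 for Gm20444, -1.10 for 2810430I11Rik, -1.06 for Gm13372 and -1.63 for Gm26840. They were -0.92 for Nt5c3b, -1.10 for Ibsp, -1.11 for Chn1os3, -1.13 for Col1a2 and -0.88 for Prmt7.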

How the results depend on the processing

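All rows called in NT3 kept their direction in every alternative that tested them. Without the replicate block for mouse, edgeR called 5 rows in NT3 (5 higher, 0 lower, with 417 at an unadjusted p under 0.05), 0 for the difference (335 unadjusted) and 171 in Ctrl. DESeq2 called 19 in NT3 (2 lower) and 169 in Ctrl. Library totals without TMM gave 19 in NT3 (15 higher), and estimation that was not robust gave 18 (0 lower). The lower count was 10 with the NT3 libraries alone, 1 with limma-voom, 11 with no filter, 3 with a minimum count of 30 and 1 with the muscle covariate. The difference gave 17 with no filter, 5 with the marrow covariate and 5 with the muscle covariate, and Ctrl gave 32 with the marrow covariate. With each mouse left out in turn, counts ran from 17 to 44 in NT3 (higher 14 to 34, lower 0 to 10), from 7 to 14 for the difference and from 163 to 324 in Ctrl. The low ends came without NT3 mouse 1 (17, with 15 of the 30), NT3 mouse 3 (0 lower) and Ctrl mouse 2 (163). The high end of 44 came without Ctrl mouse 4. The cause of these moves was not tested.

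With 4 pairs, an exact sign-flip test cannot give a p below 1 in 8. Rows of few fragments cannot show small changes.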

Other observations

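Some rows outside the rule for naming were picked after their values were seen. They had large changes with loading in NT3 tibiae without passing the test, or were high in the loaded tibia of mouse 4. Gm10629, which lies within Smpd3 with no shared exon, held 29.5, 92.8, 17.5 and 17.5 CPM non-loaded and 210.5, 219, 128 and 108 CPM loaded, with no overlap between the groups. Its log2 change was 2.24 (SE 0.41, adjusted p = 0.103). Gm12896 held 61.02, 70.9, 87.3 and 58.8 CPM non-loaded and 199, 78.3, 359 and 821 CPM loaded, higher in 4 of 4 mice, with a log2 change of 2.02 (SE 0.55, adjusted p = 0.404). Gm10718 and Gm26870, which lie opposite each other, were high in the loaded tibia of mouse 4. In the loaded tibiae the Gm10718 row held 1.04, 22.95, 2.54 and 509 CPM and the Gm26870 row 9.38, 49.96, 5.09 and 428 CPM. Their non-loaded levels are not given here, so no change with loading is shown for them. Among the NT3 libraries, the Gm10800 row was also highest in the loaded tibia of mouse 4, at 5.72% of the fragments of that library.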
